A study of Drosophila melanogaster with 6 samples.

Results

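Cytoplasmic ribosomal protein genes encode the protein subunits of the ribosome that translates nuclear messages, and they were examined in proboscises of poxn70 homozygous and poxn70 heterozygous flies. The genes were chosen by name, as every gene whose symbol in the array's annotation begins with RpL (large subunit) or RpS (small subunit) followed by a digit. This gave 37 of the 11983 genes that had a probe set of their own on the array, 21 of the large and 16 of the small subunit. A RefSeq gene table holds 88 fly genes whose symbols follow the same pattern, and those without a probe set of their own in the annotation were not analysed here. Of 43 probe sets for the 37 genes, the one with the highest mean over all arrays stood for each gene.

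A ribosome holds 1 copy of most of its proteins, so their genes are expressed at high levels and in balance in nearly every growing or active cell. In flies, loss of 1 copy of many of these genes gives the Minute phenotype of slow development and thin bristles. Several ribosomal proteins are encoded by duplicated genes, and for a number of these pairs one gene is active throughout the body and the other mainly in testis or germ line. The main genes are therefore often used as references of constant expression, RpL32 (Rp49) above all.

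The proboscis carries the feeding and taste organs of the head. It was taken from Drosophila melanogaster males aged 8 to 18 days. There were 3 poxn70 homozygous and 3 poxn70 heterozygous biological replicates with 1 array each, 6 arrays in all, and each array was made from 164 to 280 pooled proboscises. Pox neuro (Poxn), the gene that poxn70 disrupts, encodes a paired-domain transcription factor needed for bristles to become taste bristles. The heterozygotes, which served as controls, carry 1 mutant allele as well. Values are log2 GCRMA values, a probe-sequence-corrected and normalized array signal, and differences are homozygous minus heterozygous. Values under 3 were treated as background. The number of arrays limits the precision. Signals of different probe sets are not amounts on one scale, so levels below describe each probe set and do not rank transcripts. In RNA from a whole organ, fewer cells of a type and less RNA per cell cannot be told apart.

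Poxn itself was at background on every array, at 2.37 to 2.65 in homozygotes and 2.30 to 2.37 in heterozygotes, so its probe set did not check the genotypes. All 8 taste neuron markers examined had lower homozygous means, with a median difference of -3.58, and 4 of them were called lower by limma (adjusted p under 0.05). With the replicate number as a block no probe set on the array was called when all were fitted. The same block on the 9385 brighter probe sets called 74 lower and 18 higher. All 6 muscle markers had means above background and differed by -0.96 to 0.38. The 4 blood cell markers above background differed by 0.23 to 1.17 and the 4 neuron markers by -1.17 to -0.43, with 0 called in these 3 lists, and the part of cell makeup in the ribosomal values was not tested. One array stood furthest apart in its RNA controls. The array control for the 5 prime end of the GAPDH transcript read 2.22 in homozygous replicate 1, against 8.93 and 8.33 in homozygous replicates 2 and 3 and 7.52 to 8.01 in heterozygotes. The 3 prime control of the same transcript read 13.03 to 13.35 on all 6 arrays. Other 3 prime controls were not as even. That of the translation factor eIF-4a read 12.98 on homozygous replicate 1 and 14.11 to 14.33 on the other 5 arrays. The 5 prime control for 18S ribosomal RNA, the RNA of the small subunit, read 4.92 on homozygous replicate 1 and 10.22 to 11.01 on the other 5 arrays. Its 3 prime control read 9.40 there, against 11.75 to 12.92. For actin (Act5C) the 3 prime control read 12.08 and 12.12 on the homozygous and heterozygous arrays numbered 1, against 13.34 to 13.79 on the other 4. The control for the middle of that transcript read 6.08 and 8.65 on those 2 arrays, against 10.27 to 10.71. The mean of the 9 hybridization controls, which are added to the sample RNA before hybridization, was 10.58 and 10.62 on the homozygous and heterozygous arrays numbered 1, and 9.62 to 9.85 on the other 4. For each ribosomal protein gene whose difference is printed below, the difference without homozygous replicate 1 is given too where its sign turned or its size moved by over 1.5 times.

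Most ribosomal protein genes gave some of the brightest signals on the array. Of the 37 genes, 26 had a mean of 12 or more over the 6 arrays, and each of these lay above at least 96.9% of all genes. Their median was 13.99, 14.03 and 14.09 in homozygous replicates 1, 2 and 3, against 14.06, 14.25 and 13.98 in heterozygous replicates 1, 2 and 3. The medians of the genotypes interleaved.

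The 5 brightest were RpL41, RpL23, RpL37A, RpL15 and RpS28b. RpL41, which encodes a very short basic peptide of the large subunit, read 14.89, 15.00 and 15.04 in homozygotes and 14.71, 15.08 and 15.10 in heterozygotes. RpL23, a protein of the face of the large subunit that meets the small one, read 14.58, 14.85 and 14.89 in homozygotes and 14.74, 14.87 and 14.86 in heterozygotes. In both genes the arrays numbered 1 were the lowest of their genotype and the groups overlapped. RpL37A read 14.53 to 14.65 in homozygotes and 14.39 to 14.69 in heterozygotes. The familiar reference RpL32 read 13.04, 12.78 and 12.77 in homozygotes and 12.78, 12.96 and 12.65 in heterozygotes. Its difference was 0.07 ± 0.13 (SE), with a 95% interval of -0.27 to 0.40, and it was -0.02 ± 0.12 (SE) without homozygous replicate 1. The steadiest bright member, RpS26, a protein near the exit of the mRNA channel that is named here after its values were seen, stayed between 14.12 and 14.26 on all 6 arrays.

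**Figure D1:**
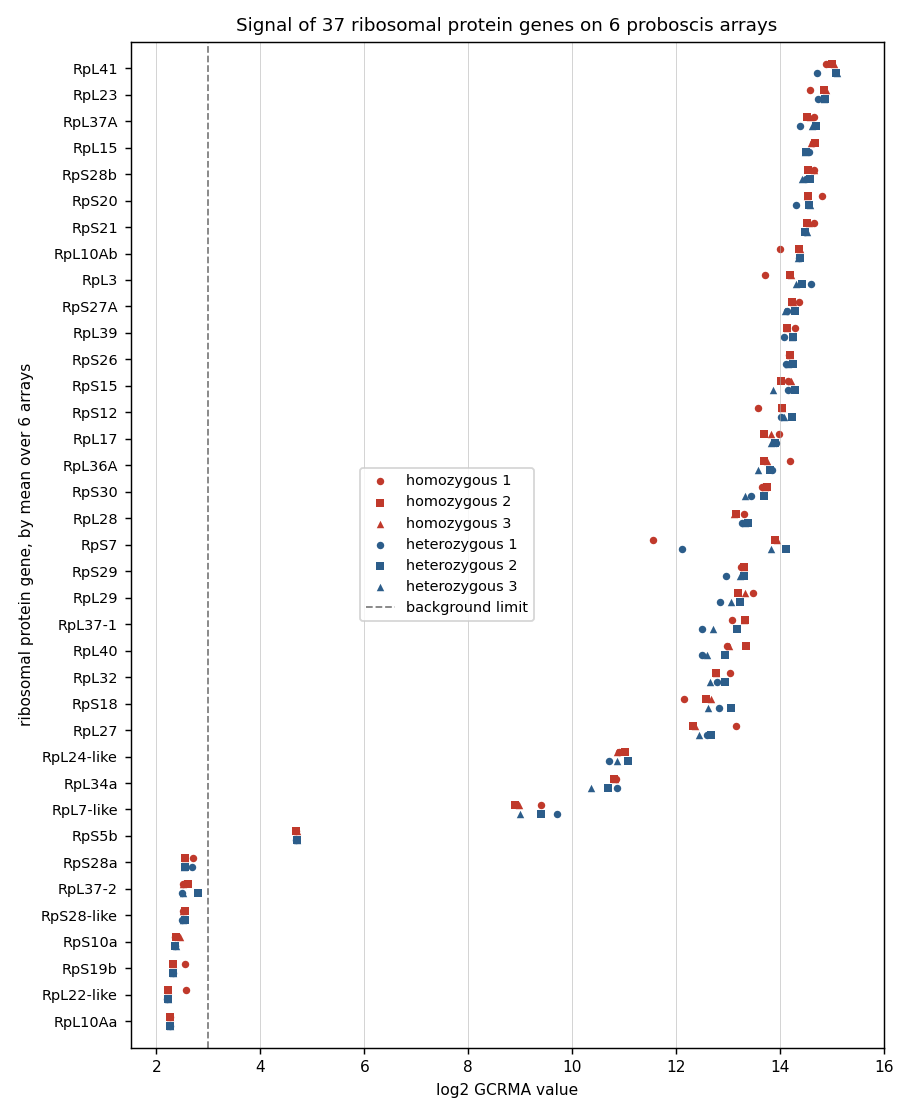
Log2 GCRMA value (horizontal axis) of each of the 37 ribosomal protein genes (rows, by mean over 6 arrays) in homozygous (red, upper) and heterozygous (blue, lower) proboscises, with a marker shape for each replicate number and a dashed line at the background limit of 3. The upper 26 genes have means of 12 or more, RpS7 is low on both arrays numbered 1, and the lowest 7 genes lie left of the line.

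Below the bright genes, 3 members gave an intermediate signal. RpL24-like and RpL7-like resemble the yeast factors Rlp24 and Rlp7, which take part in the assembly of the large subunit. RpL24-like, also named after its values were seen, averaged 10.93 ± 0.08 in homozygotes and 10.89 ± 0.18 in heterozygotes (SD, n = 3 each). RpL7-like read 9.40, 8.90 and 8.97 in homozygotes and 9.70, 9.40 and 9.00 in heterozygotes, where the groups overlapped. The third, RpL34a, is 1 of a pair of genes for the same protein, and its partner was not analysed here. It read 10.84, 10.81 and 10.82 in homozygotes and 10.86, 10.69 and 10.37 in heterozygotes.

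Duplicated ribosomal protein genes split into a bright and a dim copy wherever both copies were measured. RpL10Ab, which encodes a protein of the stalk near the tRNA exit site, read 14.00, 14.37 and 14.40 in homozygotes and 14.37, 14.38 and 14.36 in heterozygotes. Its paralogue RpL10Aa read 2.27 on all 6 arrays, which is background. RpS28b read 14.66, 14.55 and 14.65 in homozygotes and 14.50, 14.58 and 14.43 in heterozygotes. The other genes for that protein stayed under the limit on every array, RpS28a at 2.54 to 2.71 in homozygotes and 2.54 to 2.69 in heterozygotes, and RpS28-like at 2.51 to 2.56 in homozygotes and 2.50 to 2.54 in heterozygotes. The pair RpL37-1 and RpL37-2, grouped here after their values were seen, behaved alike in this respect. RpL37-1 averaged 13.25 ± 0.14 in homozygotes and 12.79 ± 0.34 in heterozygotes, and RpL37-2 averaged 2.54 ± 0.05 in homozygotes and 2.60 ± 0.17 in heterozygotes (SD, n = 3 each).

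A further 3 members were at background on every array and had no measured partner, since the main gene of each was not analysed here. RpS10a averaged 2.39 ± 0.05 in homozygotes and 2.36 ± 0.01 in heterozygotes, and RpS19b averaged 2.39 ± 0.13 in homozygotes and 2.32 in heterozygotes (SD, n = 3 each). RpL22-like, which in flies is known mainly from testis, averaged 2.34 ± 0.20 in homozygotes and 2.22 ± 0.01 in heterozygotes. RpS19b and RpL22-like had groups that did not overlap, with the highest value of each on homozygous replicate 1 (2.54 and 2.57), but all 6 values lay under the limit, so no fold is given. In all, 7 of the 37 genes were at background in both genotypes. RpS5b, a germ line paralogue named here after its values were seen, read between 4.68 and 4.71 on all 6 arrays. That range of 0.026 compares with a median range of 1.35 over the 897 probe sets with means from 4 to 5.5, of which 4 had a range as small, and with a median range of 0.015 over probe sets whose mean lay under the limit. Its level lay above 3 and its range near that of the dim probe sets.

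Germ line genes were mostly dim on the same arrays. Of 16 testis markers, 13 had means under the limit, and the other 3 had means of 3.19 to 3.77. All 5 germ line markers (aub, bgcn, osk, piwi and vas) were under it. RpS5b and RpL10Aa are near neighbours on chromosome arm 3R, with 3 protein-coding genes between them in the RefSeq table. Nearness was not limited to dim members. The bright RpS20 and RpS30 have 6 such genes between them, and the dim RpS28a and the bright RpL32 have 8.

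A background reading of 1 probe set is not a reading of the gene. All 4 members with more than 1 probe set of their own (RpL3, RpS7, RpS29 and RpS30) had a bright one and also one at background on every array. RpL3, whose protein lies next to the peptidyl transferase centre, had probe sets that averaged 14.05, 5.39 and 2.28 in homozygotes and 14.45, 6.99 and 2.26 in heterozygotes. RpS30, whose protein is made fused to a ubiquitin-like domain, averaged 13.71 and 2.19 in homozygotes and 13.48 and 2.19 in heterozygotes. The dim paralogues were each read by 1 probe set, so their transcripts were not detected by these probe sets, and a limit on their amount cannot be set.

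No ribosomal protein gene was called different between the genotypes. Fitted with limma among 18769 probe sets, 0 of the 37 passed an adjusted p of 0.05 downward and 0 upward, and the smallest adjusted p was 0.611. The background is low as well, since 0.442% of all genes were called lower and 0.0751% higher. At an unadjusted p under 0.05, 0 of the 30 members above background were lower and 1 was higher (2 higher with the replicate block), against 5.82% lower and 6.64% higher among the 7600 genes with a mean of 3 or more. The median difference of the 30 members was 0.03, beside 0.04 over those 7600 genes, with 10 members lower and 20 higher in mean. 

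The differences were also small in size. All 30 lay between -0.40 and 0.45, which is at most 1.37-fold either way in array signal. How fully such bright probe sets follow a change in RNA amount was not tested. In size, 24 of the 30 (80.0%) were under 0.25, as were 48.3% of all genes above background. These sets differ in level, with medians of 13.84 and 8.37. Among genes with a mean of 12 or more, 21 of 26 members and 325 of 558 others were under 0.25. For 29 of the 30 the 95% interval of the difference lay within 1, that is 2-fold, of zero, and for 17 of them within 0.5. The corresponding share of all genes above background within 1 was 51.4%. The exception was RpS7. Among genes with a mean of 12 or more, the median size of the difference was 0.12 for the 26 members and 0.21 for the 558 other genes, and the median SD over homozygous arrays was 0.14 for the members and 0.25 for the others. These figures describe the members and no test was made of their contrast with other genes.

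**Figure D2:**
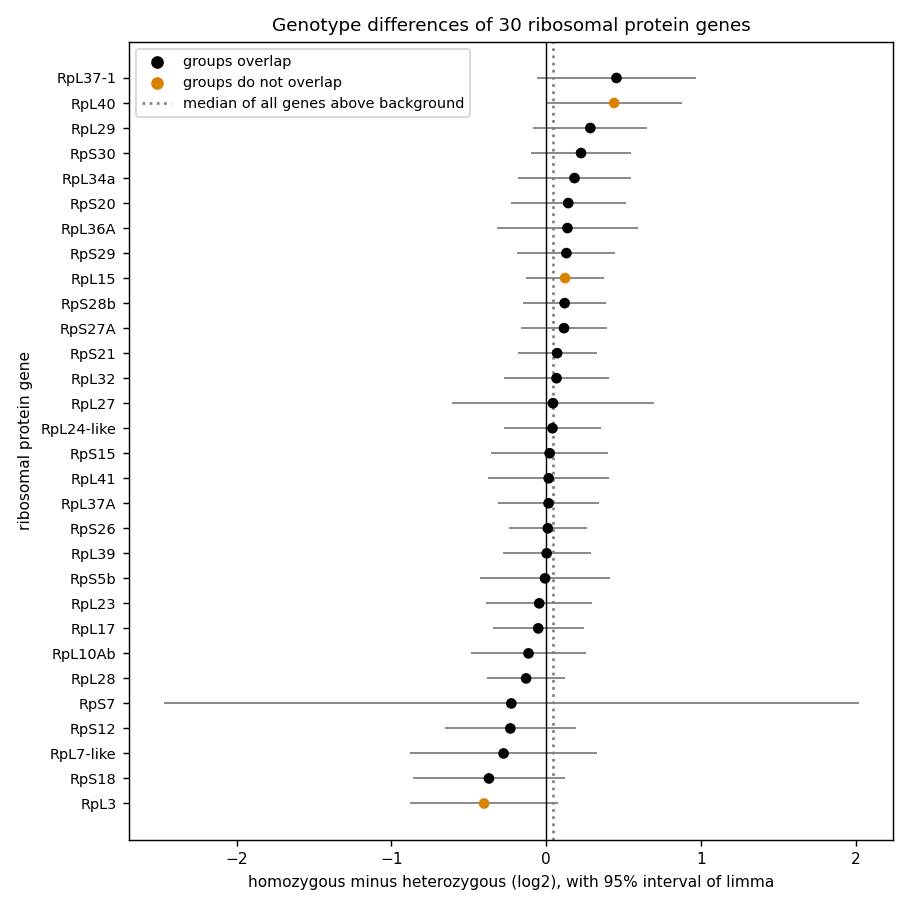
Homozygous minus heterozygous difference (log2, horizontal axis) of the 30 ribosomal protein genes above background, with the 95% interval of limma from 3 arrays per genotype. Points run from -0.40 (RpL3) to 0.45 (RpL37-1), and the interval of RpS7, -2.47 to 2.02, is the only one that passes 1 in size.

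The highest differences belonged to RpL37-1 and RpL40. RpL40, which is made as a fusion to ubiquitin, read 12.98, 13.35 and 13.03 in homozygotes and 12.51, 12.94 and 12.59 in heterozygotes. Every homozygous value lay above every heterozygous one. The difference was 0.44 ± 0.17 (SE), a 1.35-fold higher mean with an adjusted p of 0.611 (limma). Within the same-numbered pairs it was 0.47, 0.41 and 0.43. Of the 30 members above background, 6 were higher in all 3 pairs, against 25.5% of all genes above background. Another 3 were lower in all 3 pairs, against 17.2% of those genes. The difference between these shares was not tested. RpL37-1 read 13.09, 13.34 and 13.31 in homozygotes and 12.50, 13.17 and 12.71 in heterozygotes. Its difference was 0.45 ± 0.20 (SE) with groups that overlapped, and it was 0.59, 0.17 and 0.60 within the same-numbered pairs. RpL29 had a difference of 0.28 ± 0.14 (SE), RpS30 of 0.22 ± 0.13, RpL34a of 0.18 ± 0.14 and RpL15 of 0.12 ± 0.10, each with an adjusted p of 0.611 (limma). RpL15 was the other member above background with higher values and no overlap, at 14.60 to 14.67 in homozygotes and 14.49 to 14.55 in heterozygotes. The other ubiquitin fusion gene, RpS27A, named here after its values were seen, had a difference of 0.11 ± 0.11 (SE), and of 0.07 ± 0.10 without homozygous replicate 1.

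RpL3 had the lowest difference. It read 13.71, 14.20 and 14.22 in homozygotes and 14.60, 14.43 and 14.32 in heterozygotes, without overlap, and its difference of -0.40 ± 0.19 (SE) had an adjusted p of 0.611 (limma). Homozygous replicate 1 was the lowest value, and without that array the difference was -0.23 ± 0.12 (SE). RpS18, a protein of the head of the small subunit, read 12.15, 12.59 and 12.67 in homozygotes and 12.83, 13.05 and 12.63 in heterozygotes, with a difference of -0.37 ± 0.19 (SE), and of -0.21 ± 0.15 without homozygous replicate 1. RpS12, which in flies is needed for Minute cells to be outcompeted by their neighbours, differed by -0.23 ± 0.17 (SE), and by -0.08 ± 0.11 without that array. RpL7-like differed by -0.28 ± 0.24 (SE), and by -0.43 ± 0.23 without it. RpL10Ab differed by -0.11 ± 0.15 (SE) and turned to 0.01 ± 0.09 without it. RpL28 differed by -0.13 ± 0.10 (SE). The groups of these 5 genes overlapped, and their adjusted p ran from 0.611 to 0.665 (limma).

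Few ribosomal protein genes had groups that did not overlap when all 6 arrays were used. RpL3 was the 1 of 30 lower without overlap (3.33%), and RpL15 and RpL40 were the 2 higher (6.67%), against 8.58% lower and 13% higher among all genes above background. These counts moved when an array was left out, and so did the shares of all genes. Without homozygous replicate 1 they were 4 lower (13.3%) and 5 higher (16.7%), against 16.9% and 25.0% of all genes. Without homozygous replicate 2 there were 1 lower (3.33%) and 5 higher (16.7%), against 10.5% and 18.7% of all genes. Without homozygous replicate 3 there were 3 lower (10.0%) and 2 higher (6.67%), against 11.9% and 16.8%. Without heterozygous replicate 1 there were 4 lower (13.3%) and 3 higher (10.0%), against 13.1% and 19.7%. Without heterozygous replicate 2 there were 1 lower (3.33%) and 9 higher (30%), against 10.3% and 15.8%, so the members' share of higher genes was above that of all genes there. Without heterozygous replicate 3 there were 2 lower (6.67%) and 3 higher (10.0%), against 11.7% and 16.9%. The members' share of lower genes was also above that of all genes, by little, without heterozygous replicate 1. In the other counts with 1 array left out the members' share was below that of all genes. The difference between the shares was not tested.

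Few ribosomal protein genes lay far from their level elsewhere on the array that stood apart, although it often held an extreme value. Homozygous replicate 1 held the lowest or the highest of the 6 values in 61.5% of the 26 bright members, beside 59.1% of the 558 other bright genes. On that array, 3 of the 30 members above background lay more than 0.5 from the mean of the other 2 homozygous arrays, against 53.5% of all genes above background. The 2 sets differ in level, with a median of 13.84 for the members and 8.37 for all genes above background. The 3 members were RpS7 and RpL3, which were lower, and RpL27, which was higher at 13.16 against 12.33 and 12.36 in homozygous replicates 2 and 3. In RpL27, named here after its values were seen, the difference was 0.04 ± 0.26 (SE) with that array and -0.23 ± 0.10 without it.

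RpS7, a small subunit protein that is also named after its values were seen, was low on both arrays numbered 1. It read 11.55, 13.90 and 13.94 in homozygotes and 12.11, 14.13 and 13.83 in heterozygotes. The array numbered 1 differed from the mean of the other 2 of its genotype by -2.37 in homozygotes and -1.87 in heterozygotes. RpS7 was the 1 of 26 bright members more than 0.5 below on both, beside 9.68% of the 558 other bright genes. The hybridization controls also set both arrays numbered 1 apart, and their part in this reading was not tested. The genotype difference of RpS7 was -0.23 ± 0.88 (SE) over all arrays and 0.56 ± 0.68 without homozygous replicate 1. It was 0.16 ± 1.01 when heterozygous replicate 2 was left out and 0.01 ± 1.07 when heterozygous replicate 3 was. Leaving out the pair of arrays numbered 1 gave -0.06 ± 0.13, so the sign turned with the choice of arrays.

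The second probe set of RpL3 moved with the 5 prime control. It read 2.55, 6.99 and 6.62 in homozygotes and 6.61, 7.34 and 7.02 in heterozygotes, with only homozygous replicate 1 at background. GAPDH's 5 prime control fell under the limit on the same array alone. Where this probe set lies along the transcript was not looked up, and the part of RNA quality in its reading was not tested.

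**Figure D3:**
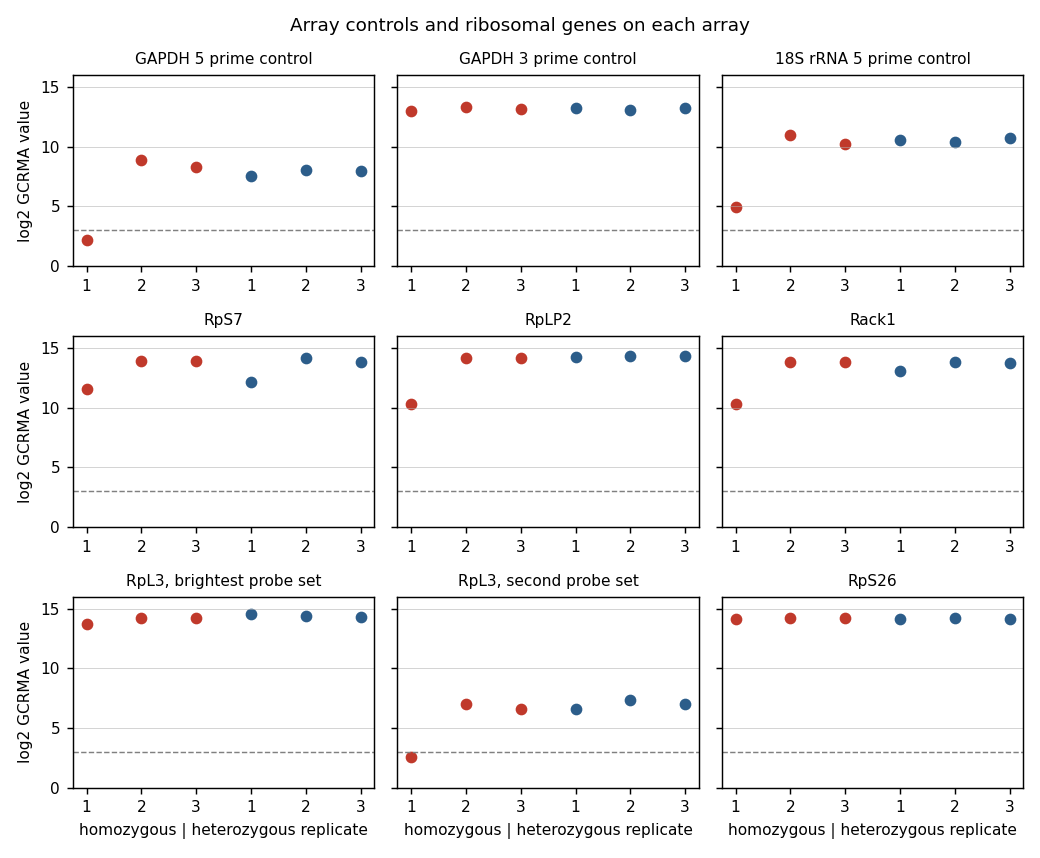
Log2 GCRMA value (vertical axis) on each array, homozygous (red) left and heterozygous (blue) right, for 3 array controls and 6 probe sets of ribosomal genes, with a dashed line at the background limit of 3. Homozygous replicate 1 is low for the 5 prime controls, RpS7, RpLP2, Rack1 and the second RpL3 probe set, RpS7 is also low in heterozygous replicate 1, and RpS26 stays at 14.12 to 14.26 throughout.

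Homozygous replicate 1 was also low for 4 of the 5 ribosomal genes examined whose symbols fall outside the naming rule. RpLP0, RpLP1 and RpLP2 encode the acidic stalk that recruits elongation factors, and Rack1 encodes a scaffold protein on the head of the small subunit. RpLP2 read 10.33, 14.19 and 14.18 in homozygotes and 14.23, 14.29 and 14.30 in heterozygotes. RpLP0 read 12.29, 14.65 and 14.65 in homozygotes and 14.68, 14.80 and 14.79 in heterozygotes. Rack1 read 10.34, 13.79 and 13.82 in homozygotes and 13.05, 13.81 and 13.77 in heterozygotes. All 3 were far lower in homozygous replicate 1 than on the other 5 arrays. RpLP1 was lowest there too, at 14.15, against 14.55 to 14.84 on the other 5 arrays. The fifth gene, RpLP0-like, read 7.78, 8.43 and 8.37 in homozygotes and 7.63, 8.04 and 7.69 in heterozygotes, a difference of 0.41 ± 0.23 (SE), and of 0.61 ± 0.16 without homozygous replicate 1. Of these 5 genes, 0 were called and 2 (RpLP0 and RpLP2, 40%) were lower without overlap, against 8.58% of all genes above background. The median difference of the 5 genes was -0.89 and became -0.01 without homozygous replicate 1.

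Lists of other translation genes likewise held no called member, and their medians differed in sign. The 69 mitochondrial ribosomal protein genes, which encode the separate ribosome of the mitochondrion, were all above background, with 55 higher and 14 lower in mean and a median difference of 0.23. Without overlap 14 were higher (20.3%) and 2 lower (2.90%), beside the 13% and 8.58% of all genes. Their smallest adjusted p was 0.158 (limma), for mRpL10 at 8.94 ± 0.04 in homozygotes and 8.37 ± 0.08 in heterozygotes (SD, n = 3 each). Next by p was mRpS11, at 9.98 ± 0.44 in homozygotes and 9.13 ± 0.03 in heterozygotes (SD, n = 3 each). The list's median was 0.17 without homozygous replicate 1.

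Among 39 translation factors above background, of 46 on the array, 28 were lower and 11 higher in mean, with a median of -0.19 that became -0.00 without homozygous replicate 1. At an unadjusted p under 0.05 (limma), 1 of the 39 was lower and 1 was higher. Among the factors, eIF2Bgamma, a subunit of the exchange factor for eIF2, averaged 9.17 ± 0.41 in homozygotes and 8.56 ± 0.08 in heterozygotes (SD, n = 3 each; limma adjusted p = 0.611). Ribosome biogenesis genes, 34 of 35 above background, had a median of -0.03. The one with the smallest p was wcd (wicked), a nucleolar protein, at 5.16 ± 0.36 in homozygotes and 6.21 ± 0.23 in heterozygotes (SD, n = 3 each; limma adjusted p = 0.459). Regulators of growth and ribosome stress, 18 of 19 above background, had a median of -0.08. Tsc1, a brake on the growth kinase TOR, averaged 8.82 ± 0.20 in homozygotes and 9.25 ± 0.11 in heterozygotes (SD, n = 3 each; limma adjusted p = 0.604).

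**Figure D4:**
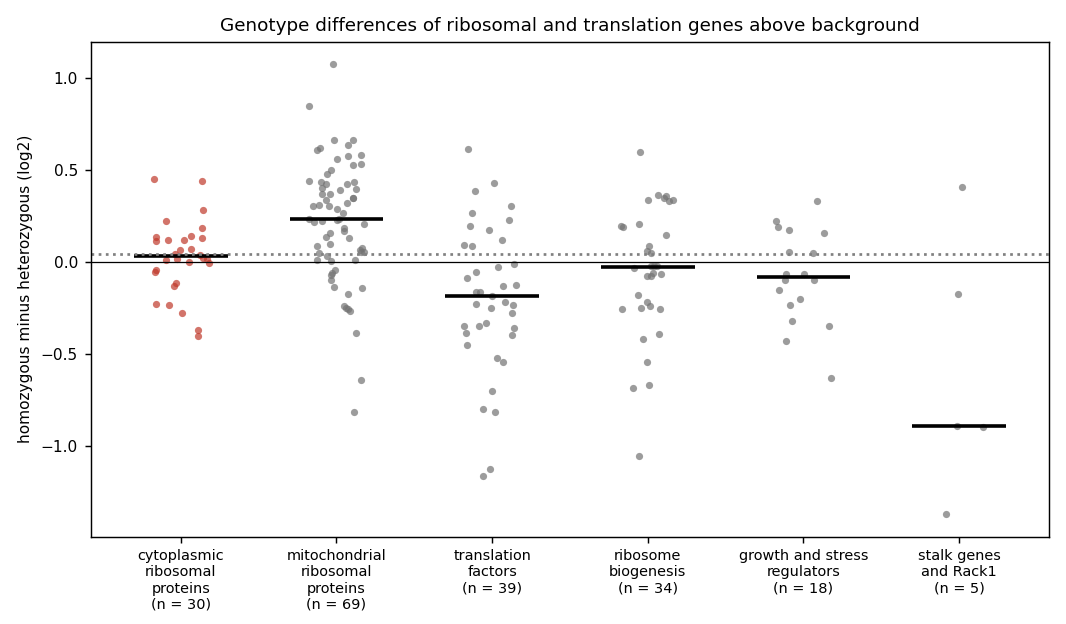
Homozygous minus heterozygous difference (log2, vertical axis) of single genes above background in the cytoplasmic ribosomal protein set (red) and in 5 other lists (grey), with bars at the medians and a dotted line at the median of all genes above background, 0.04. The 30 cytoplasmic genes lie between -0.40 and 0.45 around a median of 0.03, and the stalk genes and Rack1 have a median of -0.89 that rests on homozygous replicate 1.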

How the data were processed

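Per the labels' protocols, RNA was isolated with Trizol and roughly 50 ng went through 2 amplification rounds to give labelled cRNA. Per the submitters' processing notes, the authors made the deposited log2 values with GCRMA (version not given in the sources used here). The log2 scale was read from their range, 1.57 to 16.02. Signal over background is known only from the band of low values.

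Of 18952 probe sets, 183 controls were left out, and 13647 of the other 18769 had 1 gene in the platform annotation. Symbols were looked up in a RefSeq gene table (13544 matched, all 37 members included). The genotype fit used limma 3.58.1 (R 4.3.3; lmFit, eBayes with an intensity trend) over the 18769 probe sets, with Benjamini-Hochberg adjustment, and the fit was tested on simulated data. Named genes were members that share a protein, the 6 lowest and 6 highest by unadjusted p, the 5 brightest and 5 dimmest, RpL3 and RpL32, and up to 2 genes of other lists. Others are said to be named after their values were seen, apart from stalk genes, given in full. Members, lists and the limit of 3 were chosen with earlier results of these data known.

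Replicate numbers do not mark a shared day in the labels. Deviations of same-numbered arrays from their group means correlated over probe sets at 0.372, 0.288 and 0.142. Over the bright members they correlated at 0.785, 0.723 and 0.595. RpS7 lay far from the other bright members here. Its arrays numbered 1 differed from the other 2 of their genotype by -2.37 in homozygotes and -1.87 in heterozygotes. No other bright member passed 0.82 and 0.44 in size. The correlations without RpS7 were not computed, so they do not show a pattern shared by the members. On the correlations alone same-numbered arrays were paired for the differences within pairs and in the block alternatives. The main fit did not pair the arrays, and it gave every printed SE, interval and adjusted p for which no block is named. Alternatives left out arrays, rescaled them, filtered dim probe sets or used the replicate number as a block.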

Additional observations from a re-analysis of the deposited data

Results flagged for a closer look

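A second probe set of RpS29, which the counts above do not use because a brighter probe set stood for the gene, was higher in every homozygous array. It read 9.23, 9.86 and 9.68 in homozygotes and 9.05, 9.17 and 8.82 in heterozygotes, a difference of 0.58 with an adjusted p of 0.611 (limma). The brightest probe set of RpS29 averaged 13.30 ± 0.03 in homozygotes and 13.17 ± 0.18 in heterozygotes (SD, n = 3 each), with groups that overlapped.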

How the results depend on the processing

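The count of ribosomal protein genes called by limma was 0 lower and 0 higher under all 15 alternatives, which included each array left out in turn, 2 rescalings, the replicate block, a random block and a filter on the dimmer probe sets. With the replicate block the smallest adjusted p of a member was 0.334, and with the block on the brighter probe sets it was 0.203. The block changed no call of a member. Over all probe sets the calls were 59 lower and 11 higher, 0 and 0 with the replicate block and 117 and 50 with the random block. With the replicate block on the brighter probe sets they were 74 and 18. They were 6 and 2 without homozygous replicate 3, 6 and 0 without heterozygous replicate 2, and 9 and 0 without both arrays numbered 1. Where so few probe sets were called, a count of 0 members says little about the members. The median difference stayed between -0.01 and 0.10. Counts without overlap did move. With 1 array left out they were 1 to 4 lower and 2 to 9 higher, when 10.3% to 16.9% and 15.8% to 25.0% of all genes did not overlap. The 9 higher (30%), without heterozygous replicate 2, stood against 15.8%. Without both arrays numbered 1 they were 9 lower (30%) and 6 higher (20%), against 22.2% and 32.8% of all genes. Cyclic loess gave 5 lower (16.7%) and 1 higher (3.33%), against 9.03% and 12.7% of all genes, and the dimmest probe set of each gene gave 0 lower. The number of members above background was 30 with a limit of 4 and 26 with the dimmest probe set. Fewer arrays and fewer bright probe sets are part of how these alternatives were built, and for cyclic loess the cause was not tested. Of the named genes, RpL40 stayed between 0.32 and 0.57 and RpL37-1 between 0.31 and 0.64, RpS18 stayed between -0.48 and -0.21, and RpL3 ranged from -0.49 to 0.02, the last with its dimmest probe set.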
